A study of Mus musculus with 19 samples.

Results

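Haptoglobin (Hp), orosomucoid 1 (Orm1), serum amyloid A3 (Saa3), lipocalin 2 (Lcn2) and ceruloplasmin (Cp) encode secreted acute phase proteins, and their transcripts were followed in the inguinal fat of mice with a fibrosarcoma. The members were the entries of the deposited table with these 5 gene names, out of 24844 genes. Each name occurred once, with the identifiers ENSMUSG00000031722 (Hp), ENSMUSG00000039196 (Orm1), ENSMUSG00000040026 (Saa3), ENSMUSG00000026822 (Lcn2) and ENSMUSG00000003617 (Cp). RNA was taken from the entire inguinal fat pad of 19 mice of the C57BL/6JRj strain, all wild type, and each library was 1 mouse. The sequencing method reads the 3' end of transcripts, and values are RPM, the reads of a gene scaled to 1000000 reads of its library.

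The acute phase response is the change in secreted plasma proteins that follows infection, injury or a tumour. Cytokines such as interleukin 6 and interleukin 1 act through STAT3, C/EBP and NF-kappa B factors to raise positive acute phase genes in the liver, while negative acute phase genes such as albumin fall. Adipocytes and other cells of fat also transcribe several of these genes, haptoglobin, lipocalin 2 and the fat-expressed serum amyloid A3 among them.

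All mice lived at thermoneutrality (29 °C), to which they had 14 days to adapt. Efruxifermin mice (n = 5) bore a CHX 207 fibrosarcoma and were injected with efruxifermin, an engineered FGF21 protein, at 2 mg/kg in 6 intraperitoneal doses. FGF21 AAV mice (n = 5) bore the same tumour and received an adeno-associated virus (AAV) carrying FGF21 by vein. Tumour control mice (n = 5) bore the tumour and received control AAV. Healthy mice (n = 4) had no tumour and received control AAV with intraperitoneal PBS. Treatment of the tumour groups began 9 days before 1000000 tumour cells were placed in the calf muscle, and the mice were killed 14 days after the cells. The labels do not say whether efruxifermin mice also received control AAV, so the drug and the virus cannot be told apart in the efruxifermin comparisons. The tumour is a single cell line.

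Sequencing depth was 2011067 to 3693864 reads per library. Adipocyte markers were present in every library, the defining gene Adipoq ranging from 58.6 to 2192 RPM. Markers of B cells, which fill the lymph node embedded in this fat pad, had a score above 3 in 3 of 5 efruxifermin, 2 of 5 FGF21 AAV, 4 of 5 tumour control and 2 of 4 healthy libraries. A score is the mean log2(RPM + 1) of the marker list. A pair of libraries stood apart, 1 treated and 1 tumour control. Efruxifermin 3 had the fewest detected genes (12537) and 17.3% of its reads on the single gene Gm42418. Tumour control 4 had a B cell score of 0.249, where the other tumour controls had 6.90 to 8.16. Lower B cell scores occurred in healthy 1 (0.170) and healthy 4 (0.222). Tumour control 4 also had the highest score of skeletal muscle markers (12.48) and the highest mitochondrial share of reads (13.9%) of all libraries. In bulk tissue, fewer cells of a type and less RNA per cell cannot be told apart.

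Hp, Orm1 and Cp were higher in tumour-bearing mice given efruxifermin than in tumour controls, and Orm1 and Cp were higher in those given FGF21 AAV. Orm1 had the largest estimated changes of the 5 members under both agents. Lcn2 had positive estimates under both agents that did not pass the test, and Saa3 was close to absent. The test was limma on log2(RPM + 1) over 17013 genes, and genes were called below 0.05 after Benjamini-Hochberg adjustment of two-sided p-values. In efruxifermin against tumour control 3 of 5 members were called, all higher, where 0.676% of all tested genes were called higher and 0.764% in either direction. In FGF21 AAV against tumour control 2 of 5 were called, where 0.517% of all genes were called higher and 0.564% in either direction. Both comparisons use the same 5 tumour control libraries. At an unadjusted p under 0.05 there were 4 members in each comparison (all but Saa3), beside 13.9% of all genes under efruxifermin and 16% under FGF21 AAV.

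**Figure D1:**
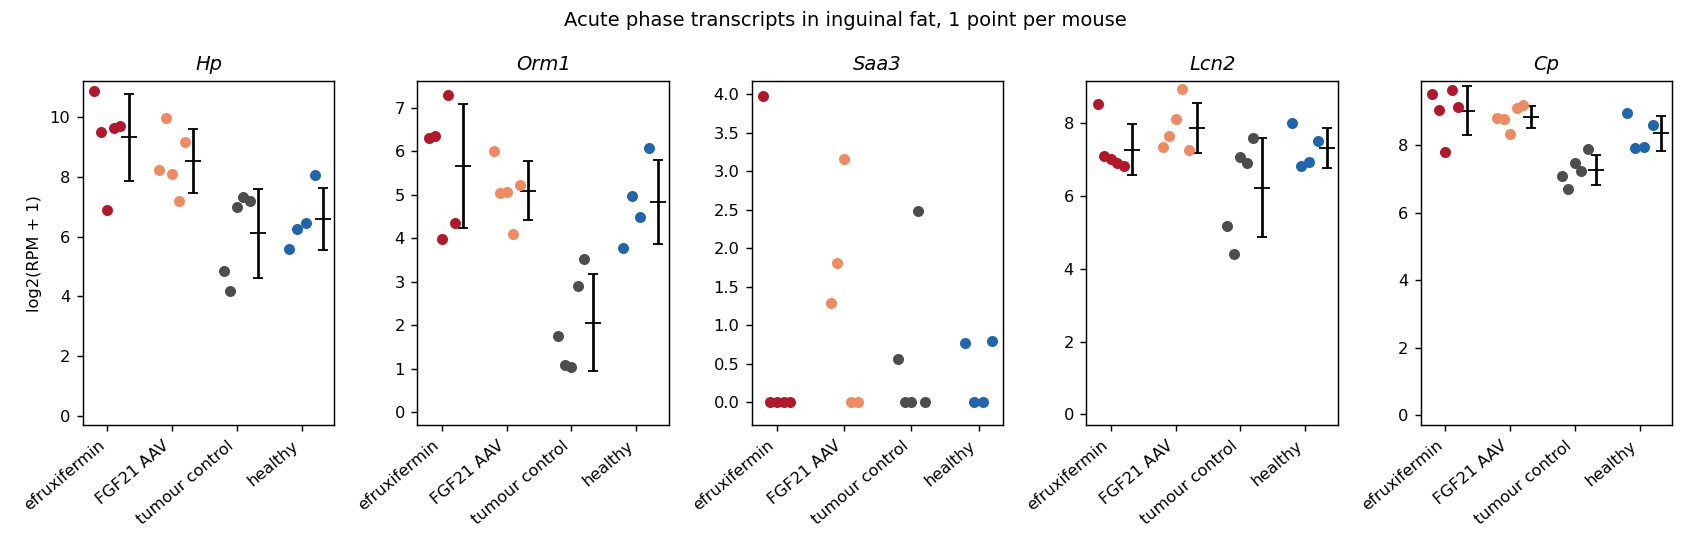
log2(RPM + 1) of the 5 members (vertical axes) in the 4 groups (horizontal axes), 1 point per mouse, with the mean and SD beside the points of each group except for Saa3, which had libraries at 0. Orm1 in every efruxifermin and FGF21 AAV mouse lay above every tumour control, and Saa3 lay at 0 in 11 of 19 libraries.

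Haptoglobin binds free haemoglobin in plasma, and the complex is taken up through the macrophage receptor CD163. Hp was at 1851, 714, 118, 784 and 833 RPM in the efruxifermin libraries. It was at 295, 996, 272, 144 and 569 RPM under FGF21 AAV. Tumour controls had 27.5, 17.0, 125, 159.7 and 146 RPM, and healthy mice 47.1, 74.6, 86.0 and 262 RPM. Thus 4 of 5 mice under each agent exceeded every tumour control, and in each case the remaining mouse lay among the controls, efruxifermin 3 at 118 RPM and FGF21 AAV 4 at 144 RPM.

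Group means of Hp were 860.1 ± 624.5 RPM under efruxifermin, 455 ± 339.7 RPM under FGF21 AAV, 95.01 ± 67.6 RPM in tumour controls (SD, n = 5 each) and 117 ± 97.6 RPM in healthy mice (SD, n = 4). Under efruxifermin Hp rose relative to tumour controls by 3.21 ± 0.67 on the log2(RPM + 1) scale (SE), or 9.25-fold, with an adjusted p of 0.0241 by limma. Under FGF21 AAV the estimate was 2.42 ± 0.67, or 5.34-fold, and missed the threshold with an adjusted p of 0.0891 by limma. Without tumour control 4 and efruxifermin 3, the libraries that stood apart, the Hp estimates were 4.12 for efruxifermin (limma adjusted p 0.000576) and 2.72 for FGF21 AAV (limma adjusted p 0.0103). Tumour control 4 had the highest Hp of its group and efruxifermin 3 the lowest of its own. Leaving them out therefore raises the Hp estimates by construction. This omission, chosen after seeing the data, raised the share of all genes called to 4.3% for efruxifermin and 10.3% for FGF21 AAV. It also removed the single tumour control with a B cell score under 3, which had the highest skeletal muscle score of all libraries.

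Orosomucoid 1, or alpha-1-acid glycoprotein 1, is a plasma lipocalin that binds small lipophilic molecules. Orm1 was at 78.2, 80.7, 14.7, 157 and 19.4 RPM under efruxifermin. It was at 63.6, 31.8, 32.7, 16.2 and 36.5 RPM under FGF21 AAV. Tumour controls had 2.37, 1.14, 1.05, 6.50 and 10.5 RPM, and healthy mice 12.7, 30.4, 21.6 and 66.3 RPM. Neither treated group overlapped with the tumour controls, and the tumour controls did not overlap with healthy mice either. Among all tested genes 1.06% were above every tumour control in every efruxifermin mouse, 2.71% in every FGF21 AAV mouse, and 3.66% were below every healthy mouse in every tumour control.

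Orm1 averaged 70.01 ± 57.8 RPM under efruxifermin, 36.2 ± 17.2 RPM under FGF21 AAV, 4.32 ± 4.12 RPM in tumour controls (SD, n = 5 each) and 32.8 ± 23.5 RPM in healthy mice (SD, n = 4). It rose relative to tumour controls by 3.59 ± 0.63 (log2, SE), or 12.1-fold, under efruxifermin (limma adjusted p 0.0108). Under FGF21 AAV it rose by 3.03 ± 0.63, or 8.16-fold (limma adjusted p 0.0325). The tumour controls held 62 reads of Orm1 in all 5 libraries, so their levels rest on few reads.

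Ceruloplasmin is the copper-carrying ferroxidase of plasma, which oxidises iron as it leaves cells. Cp was at 729, 527, 223, 799 and 563 RPM under efruxifermin. It was at 451, 436, 321, 550.2 and 585 RPM under FGF21 AAV. Tumour controls had 134, 103, 178, 149 and 236 RPM, and healthy mice 497, 241, 246 and 391 RPM. Every FGF21 AAV mouse lay above every tumour control. Efruxifermin 3, at 223 RPM, was the single efruxifermin library below the highest tumour control.

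Cp averaged 568.2 ± 224 RPM under efruxifermin, 469 ± 104 RPM under FGF21 AAV, 160.2 ± 50.3 RPM in tumour controls (SD, n = 5 each) and 344 ± 124 RPM in healthy mice (SD, n = 4). Its rise relative to tumour controls was 1.75 ± 0.31 (log2, SE), or 3.37-fold, under efruxifermin (limma adjusted p 0.0108) and 1.57 ± 0.31, or 2.96-fold, under FGF21 AAV (limma adjusted p 0.0316). Cp varied least among replicates of the members, with a coefficient of variation of 22.2% to 39.4% over the groups. Hp varied by 71.2% to 83.2%.

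Lipocalin 2 binds bacterial iron siderophores and is made by neutrophils, epithelia and adipocytes. Lcn2 was at 366, 137, 128, 119 and 114 RPM under efruxifermin. It was at 163, 201, 276, 489.8 and 154 RPM under FGF21 AAV. Tumour controls had 35.1, 20.4, 134, 119 and 193 RPM, and healthy mice 256, 112, 122 and 184 RPM. The groups overlapped in every comparison, and the low tumour controls were numbers 1 and 2. The estimates relative to tumour controls were 1.04 ± 0.48 (log2, SE) for efruxifermin (limma adjusted p 0.337) and 1.63 ± 0.48 for FGF21 AAV (limma adjusted p 0.108). Without tumour control 4 and efruxifermin 3 the FGF21 AAV estimate was 1.80 and passed (limma adjusted p 0.0275), in a fit that called 10.3% of all genes.

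Serum amyloid A3 is a member of the serum amyloid A family that is transcribed outside the liver, in adipocytes and macrophages of the mouse. Saa3 had 94 reads in all, found in 8 of 19 libraries. Efruxifermin 1 held 14.7 RPM and the other 4 efruxifermin libraries had no read. FGF21 AAV libraries had 1.44, 2.49, 7.92, 0 and 0 RPM, tumour controls 0.475, 0, 0, 4.602 and 0 RPM, and healthy mice 0.703, 0, 0 and 0.733 RPM. The 3 reads that a count of 0 allows correspond to 0.812 to 1.49 RPM per library. Saa3 was not called in any comparison, and differences of this gene were not detectable at this depth.

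C/EBP factors are the textbook regulators of acute phase promoters and also of adipocyte genes, so the upstream windows of the members were searched for their site. RefSeq promoter sequences (GRCm38.p6, a build other than that of the counts) were at hand for Cp, Lcn2 and Saa3, with a pair of start sites for Cp. The motifs were TTNNGCAA for C/EBP, TTCNNNGAA for STAT and TATAAA for the TATA box, each sought on both strands in the 250 bases before a start. The C/EBP matches of the 3 genes are shown because they are the one motif that all 3 genes share. Capitals mark the motif, and each line is read along the strand of the gene.
Cp (chr3:19957168-19957197, plus strand, 70 to 63 bases before the second start): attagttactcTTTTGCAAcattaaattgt
Lcn2 (chr2:32387937-32387966, minus strand, 216 to 209 bases before the start, motif on the opposite strand): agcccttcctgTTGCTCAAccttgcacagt
Saa3 (chr7:46715757-46715786, minus strand, 99 to 92 bases before the start): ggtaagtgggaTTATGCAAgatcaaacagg

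Of 32851 promoters 9.56% hold the C/EBP motif, 7.02% the STAT motif and 12.4% the TATA motif in such a window. The window of the second Cp start also holds TATAAA, on both strands in overlapping positions, 27 to 20 bases before the start. None of these windows holds the STAT motif, and the window of the first Cp start holds no motif. Cebpa, Cebpb and Cebpd, named here after their values were seen, had estimates of 1.57 ± 0.55, 0.69 ± 0.39 and 0.70 ± 0.40 under efruxifermin (limma adjusted p 0.196, 0.441 and 0.448). Under FGF21 AAV they had 1.83 ± 0.55, 0.65 ± 0.39 and 0.59 ± 0.40 (limma adjusted p 0.112, 0.431 and 0.499).

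**Figure D2:**
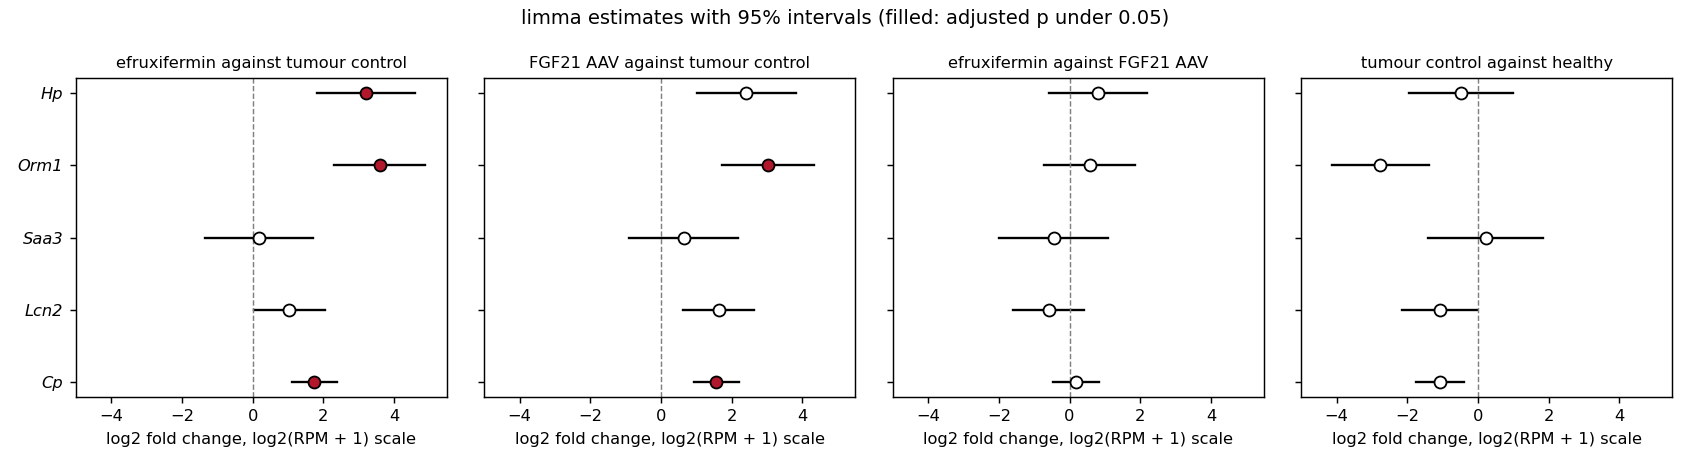
limma log2 fold changes on the log2(RPM + 1) scale (points, horizontal axes) with 95% intervals (lines) for the 5 members (vertical axis) in 4 comparisons, filled where the adjusted p was under 0.05. Hp, Orm1 and Cp are filled for efruxifermin against tumour control, Orm1 and Cp for FGF21 AAV against tumour control, and none for the other comparisons.

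These calls depended on the test and on single libraries. By edgeR's quasi-likelihood test on recovered reads 2 members (Orm1 and Cp) were called under efruxifermin and 0 under FGF21 AAV, while DESeq2 called 3 (Hp, Orm1 and Cp) in each. The edgeR test called 0.27% of genes for efruxifermin and 0.047% for FGF21 AAV, and DESeq2 called 2.57% for efruxifermin and 8.55% for FGF21 AAV of the genes to which it gave an adjusted p. Hp under efruxifermin was no longer called by limma without efruxifermin 1 (2.82), 2 (3.17) or 4 (3.13) or without tumour control 1 (2.89) or 2 (2.73). Orm1 and Cp under efruxifermin both missed the threshold without efruxifermin 1 (limma adjusted p 0.0501) or 4 (limma adjusted p 0.0536). Orm1 and Cp under FGF21 AAV missed it without FGF21 AAV 2, 3, 4 or 5 or tumour control 1 or 2, where the limma adjusted p was 0.0540 to 0.13. Every estimate of these members kept its sign.

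No member was called higher in tumour controls than in healthy mice, and 4 of 5 estimates were negative. The positive one was that of Saa3, a gene with few reads. Over all tested genes 38.79% had a positive estimate in this comparison. By limma 0 of 5 members were called in tumour control against healthy, where 0.047% of all genes were called. At an unadjusted p under 0.05 there were 3 (Orm1, Lcn2 and Cp, all lower), by edgeR 0 and by DESeq2 1 (Orm1). The same rules took 8.32%, 0.00588% and 0.293% of all genes. The Orm1 estimate was -2.77 ± 0.67 (log2, SE; limma adjusted p 0.116) and that of Cp -1.08 ± 0.33 (limma adjusted p 0.245). For both genes every tumour control lay below every healthy mouse, as did 3.66% of all tested genes. Without tumour control 4 and efruxifermin 3 the Orm1 estimate was -2.98 and passed (limma adjusted p 0.0209), in a fit that called 1.35% of all genes.

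The other members overlapped between tumour controls and healthy mice. Lcn2 had an estimate of -1.09 ± 0.51 (limma adjusted p 0.58). Hp had -0.48 ± 0.71 (limma adjusted p 0.938), with an interval of -1.95 to 1.00, which covers changes in both directions. The median over the 5 members was -1.08, and that over all tested genes was -0.16.

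Efruxifermin and FGF21 AAV were not shown to differ in any member. In efruxifermin against FGF21 AAV limma called 0 of 5 members and 0% of all genes, and 0 members passed at an unadjusted p under 0.05, by edgeR or by DESeq2, beside 5.55%, 0% and 0.112% of all genes. The estimate for Hp was 0.79 with a 95% interval of -0.59 to 2.18, and that for Orm1 was 0.57 with -0.73 to 1.86. Lcn2 had -0.59 with -1.59 to 0.41, and 4 of 5 efruxifermin libraries lay below every FGF21 AAV library. Cp had the narrowest interval, 0.18 with -0.46 to 0.83. The intervals of Hp and Orm1 are too wide to call the agents alike for these genes.

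Against healthy mice, the treated groups had no called member. In efruxifermin against healthy limma called 0 of 5 members and 0% of all genes, 1 member (Hp) had an unadjusted p under 0.05 as did 8.07% of all genes, and edgeR and DESeq2 called 0 members beside 0% and 0.101% of all genes. Hp stood at an estimate of 2.73 ± 0.71, or 6.65-fold, with an unadjusted p of 0.000806 and a limma adjusted p of 0.334, and 4 of 5 efruxifermin mice exceeded every healthy mouse. Without tumour control 4 and efruxifermin 3 its estimate was 3.34 and passed (limma adjusted p 0.0376), in a fit that called 0.047% of all genes. Efruxifermin 3 had the lowest Hp of its group, so leaving it out raises this estimate by construction.

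In FGF21 AAV against healthy limma called 0 of 5 members and 0.0118% of all genes. Hp alone had an unadjusted p under 0.05, as did 5.34% of all genes, and edgeR and DESeq2 called 0 members beside 0.00588% and 0.166% of all genes. Its estimate was 1.94 ± 0.71 (limma adjusted p 0.877), and 4 of 5 FGF21 AAV mice exceeded every healthy mouse. Orm1 had an estimate of 0.83 for efruxifermin and 0.26 for FGF21 AAV, with intervals of -0.54 to 2.20 and -1.11 to 1.64. For Cp the estimates were 0.67 for efruxifermin and 0.48 for FGF21 AAV.

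Across the 19 libraries Hp, Orm1 and Cp varied together. Pearson's r of log2(RPM + 1) was 0.823 for Orm1 and Cp (Spearman's rho 0.761), and its adjusted p, 0.0001, was the smallest that 100000 permutations with adjustment over the 10 pairs gave. It was 0.783 for Hp and Cp (rho 0.723, permutation p adjusted 0.000533) and 0.743 for Hp and Orm1 (rho 0.714, permutation p adjusted 0.000533). Leaving out the 2 libraries farthest from the median gave r values of 0.759, 0.680 and 0.643 for these 3 pairs.

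The relations were lower within groups. With the group means removed, r was 0.621 for Hp and Orm1 and 0.593 for Hp and Cp (permutation p adjusted over 10 pairs 0.0361 for both). For Orm1 and Cp it was 0.472 and missed the threshold (adjusted permutation p 0.101). These permutations shuffled the residuals over all 19 libraries, across groups, and made no allowance for the group means removed. Their p-values therefore tend to be too small, and the 0.0361 is not a secure pass. Lcn2 and Cp had a pooled r of 0.675 (rho 0.475), which was 0.384 without tumour controls 1 and 2, so that relation rests on those libraries. Every pair with Saa3 had a permutation p above the threshold.

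Some genes had profiles much like those of single members, and the likeness was described by Pearson's r over the 19 libraries among 12178 other genes of mean RPM 5 or more. For Hp they were Mt1 (r 0.913), a metallothionein and itself a positive acute phase gene, Gda (0.909), a guanine deaminase, and Ffar2 (0.904), a receptor for short-chain fatty acids. For Orm1 they were the collagen chain Col5a3 (0.939), the inositol transporter Slc5a3 (0.925) and the membrane protein Emp1 (0.921). For Cp they were lipoprotein lipase, Lpl (0.935), the glycerol channel Aqp7 (0.935) and Fam102b (0.933).

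Lcn2 lay nearest to the syndecan Sdc2 (r 0.889), Ppp1r9a (0.881) and Zcchc24 (0.873). Saa3 had lower values, with Akr1c18 (0.772), Cbr2 (0.688) and Rcan2 (0.681), and its profile rests on 8 libraries with reads. With the group means removed the r of the 15 named genes with their member was 0.747 to 0.907. These genes were picked by their r over the same libraries, so these values are no separate check of the likeness.

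The levels of Hp, Orm1 and Cp also moved with the RNA of adipocyte markers. All 12 adipocyte markers were in the table, and their summed level was 3838 to 32945 RPM under efruxifermin, 13788 to 41376 RPM under FGF21 AAV, 1595 to 11474 RPM in tumour controls and 11143 to 34869 RPM in healthy mice. The score was 9.21 ± 1.15 under efruxifermin, 9.41 ± 0.65 under FGF21 AAV, 7.38 ± 1.06 in tumour controls (SD, n = 5 each) and 8.86 ± 0.63 in healthy mice (SD, n = 4). Efruxifermin 3, the low efruxifermin library in Hp, Orm1 and Cp, had a score of 7.19. Limma called 1 of 12 markers higher under efruxifermin (Acvr1c) and 2 of 12 under FGF21 AAV (Lep and Fabp4). All 12 were higher at an unadjusted p under 0.05 under each agent, where 13.9% of all genes under efruxifermin and 16% under FGF21 AAV passed in either direction. DESeq2 called 10 of 12 under efruxifermin and 12 of 12 under FGF21 AAV, and edgeR called 1 under efruxifermin and 0 under FGF21 AAV. The shares of all genes for efruxifermin and FGF21 AAV were 0.764% and 0.564% by limma and 0.27% and 0.047% by edgeR. By DESeq2 they were 2.57% and 8.55% of the genes with an adjusted p.

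With group means removed, r with the adipocyte score was 0.811 for Cp, 0.772 for Hp, 0.643 for Orm1 and 0.406 for Lcn2 (permutation p adjusted over 60 relations of members with 12 scores: 0.0018, 0.0018, 0.0202 and 0.212). These permutations also shuffled residuals across groups, so the p-values tend to be too small. Pooled over the 19 libraries r was 0.893 for Cp, 0.791 for Hp and 0.823 for Orm1, and 0.836, 0.652 and 0.722 without tumour controls 1 and 2. With group means removed Cp also had r of 0.742 with endothelial, 0.734 with stromal progenitor and 0.713 with red blood cell markers. Stromal progenitor markers had 0.719 with Hp and 0.574 with Orm1. These relations had adjusted permutation p of 0.00405 to 0.0437, so the link was not particular to adipocyte markers. With the adipocyte score as a covariate the efruxifermin estimates against tumour controls were 1.22 for Hp, 2.20 for Orm1 and 0.90 for Cp, and none was called (limma adjusted p 0.474, 0.352 and 0.352). For FGF21 AAV they were 0.21 for Hp, 1.48 for Orm1 and 0.62 for Cp (limma adjusted p 0.934, 0.503 and 0.502). With this covariate 1 of all 17013 genes was called for efruxifermin and 2 for FGF21 AAV. The adipocyte score and the treatment moved together, and their parts in the result cannot be told apart.

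**Figure D3:**
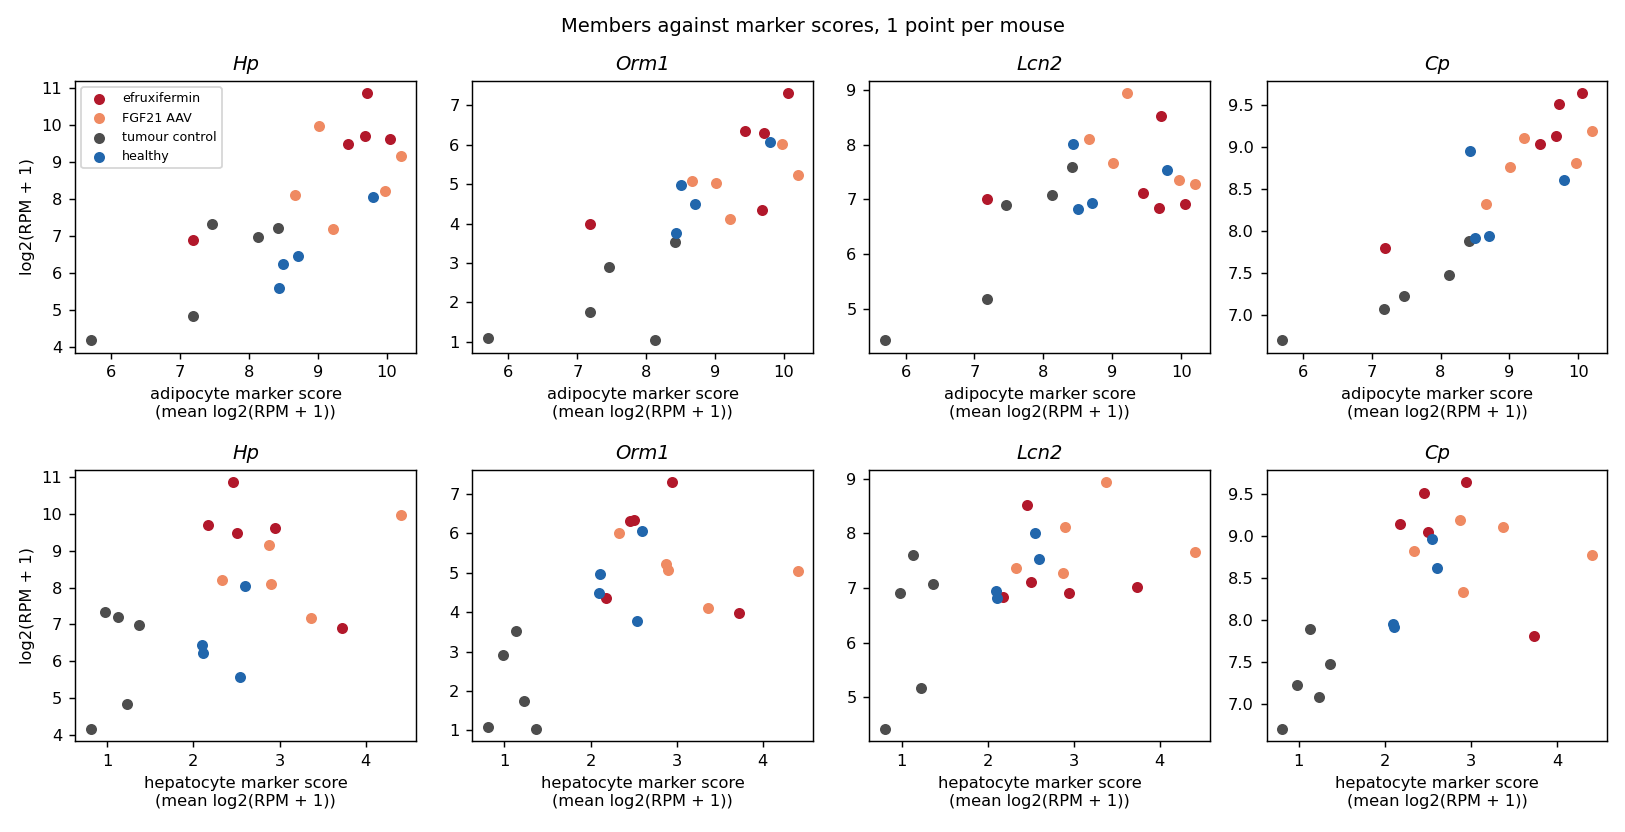
log2(RPM + 1) of Hp, Orm1, Lcn2 and Cp (vertical axes) against the adipocyte marker score (top) and the hepatocyte marker score (bottom), both as mean log2(RPM + 1), 1 point per mouse coloured by group. Cp followed the adipocyte score with an r of 0.893, and all 5 tumour controls have hepatocyte scores below those of the other 14 mice.

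The liver is the main source of plasma haptoglobin, orosomucoid and ceruloplasmin, so hepatocyte markers were read beside them. Of 14 hepatocyte markers 13 were in the table. Their summed level was 169 to 415 RPM under efruxifermin, 329 to 746 RPM under FGF21 AAV, 46.2 to 248 RPM in tumour controls and 126 to 574 RPM in healthy mice. Alb was at 23.5 to 78.6 RPM under efruxifermin, 28.4 to 141 RPM under FGF21 AAV, 0 to 0.271 RPM in tumour controls (1 read in all) and 17.4 to 46.9 RPM in healthy mice. In tumour controls Ttr, Cps1, Tat and Hnf4a had no read, and Cps1 also had none under either agent.

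Of 11 tested hepatocyte markers limma called 2 higher under efruxifermin (Alb and Apoa1) and 4 under FGF21 AAV (Alb, Ttr, Apoa1 and Ahsg). Over all genes limma called 0.764% for efruxifermin and 0.564% for FGF21 AAV. The called markers are also on the list of negative acute phase genes below. Without adjustment, 6 passed a p of 0.05 under efruxifermin and 7 under FGF21 AAV, all higher. Over all genes 13.9% passed so under efruxifermin and 16% under FGF21 AAV. In tumour control against healthy limma called 1 (Alb), as lower, beside 0.047% of all genes. With the group means removed, r with the hepatocyte score was -0.0493 for Hp, -0.222 for Orm1 and -0.155 for Cp (permutation p adjusted 0.904, 0.61 and 0.768). The part of liver-type RNA in the group differences cannot be told apart from that of the treatment. With the hepatocyte score as a covariate the efruxifermin estimates were 3.41 for Hp, 4.34 for Orm1 and 2.00 for Cp, and none passed (limma adjusted p 0.275, 0.138 and 0.157). The FGF21 AAV estimates of Orm1 and Cp were 3.96 and 1.88, and neither passed (limma adjusted p 0.304 and 0.342). With this covariate 5 of all 17013 genes were called for efruxifermin and 0 for FGF21 AAV, and the median of all genes shifted by 0.354 for efruxifermin and 0.443 for FGF21 AAV (log2).

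Lcn2 was also read beside epithelial and neutrophil markers. Its r with the score of 12 epithelial markers was 0.746 pooled (rho 0.574, permutation p adjusted 0.0024) and 0.650 with group means removed (permutation p adjusted 0.0206). The second p-value shuffled residuals across groups and tends to be too small. The epithelial score was 5.46 ± 0.32 under efruxifermin, 6.12 ± 0.60 under FGF21 AAV, 4.84 ± 0.49 in tumour controls (SD, n = 5 each) and 6.18 ± 0.41 in healthy mice (SD, n = 4). The summed epithelial level was 698 to 1848 RPM under efruxifermin, 708 to 2770 RPM under FGF21 AAV, 476 to 886 RPM in tumour controls and 1202 to 1801 RPM in healthy mice. Limma called 0 of 12 epithelial markers under either agent. Without adjustment of p there were 4 under efruxifermin and 8 under FGF21 AAV, all higher, edgeR called 0 in both, and DESeq2 called 0 under efruxifermin and 3 under FGF21 AAV. For 3 of the 12 DESeq2 gave no adjusted p under FGF21 AAV. Of the genes with one it called 8.55% there, and limma called 0.564% of all genes. Over all genes 13.9% under efruxifermin and 16% under FGF21 AAV had an unadjusted p under 0.05.

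Neutrophils carry LCN2 in their granules, and 11 of 14 neutrophil markers were in the table. Their summed level was 98.6 to 179 RPM under efruxifermin, 107 to 332 RPM under FGF21 AAV, 26.8 to 190.5 RPM in tumour controls and 75.6 to 177 RPM in healthy mice. The defining gene S100a8 had a median of 0.949 RPM under efruxifermin, 8.89 RPM under FGF21 AAV, 1.90 RPM in tumour controls and 1.297 RPM in healthy mice, and Ly6g had no read under either agent or in tumour controls. Of 8 tested markers limma called Ltf, the granule protein lactoferrin, higher under FGF21 AAV (2.12 ± 0.45, limma adjusted p 0.0334), beside 0.564% of all genes. Only 3 of the 8 estimates were positive there, with a median of -0.28. Under efruxifermin 1 of 8 estimates was positive, with a median of -0.69, and limma, edgeR and DESeq2 called 0, with no adjusted p from DESeq2 for 1. At an unadjusted p under 0.05 there was 1 marker higher and 1 lower under efruxifermin, beside 13.9% of all genes. The r of Lcn2 with the neutrophil score was -0.121 pooled. The part of epithelial or neutrophil RNA in the Lcn2 values was not tested.

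The B cell score was 0.391 to 6.61 under efruxifermin, 0.448 to 6.57 under FGF21 AAV, 0.249 to 8.16 in tumour controls and 0.170 to 7.09 in healthy mice. Limma, edgeR and DESeq2 called 0 of 10 B cell markers for either agent against tumour control and for tumour control against healthy. For 2 of the 10 DESeq2 gave no adjusted p in FGF21 AAV against tumour control. Before adjustment, 7 were lower under FGF21 AAV than in tumour controls, and 0 passed for efruxifermin against tumour control or for tumour control against healthy. Over all genes 16%, 13.9% and 8.32% passed before adjustment in these 3 comparisons. The members were fitted again with only the libraries above a score of 3. Among these the efruxifermin estimates were 3.81 for Hp, 4.15 for Orm1 and 1.99 for Cp, and all passed (limma adjusted p 0.012, 0.0227 and 0.0086). The FGF21 AAV estimates were 3.69 for Orm1 and 1.29 for Cp and missed the threshold, with 2 libraries left in that group (limma adjusted p 0.174 for both). In these fits 1.75% of all genes were called for efruxifermin and 0.00588% for FGF21 AAV. A single tumour control, number 4, had a score of 3 or less, which is too few for a fit of the other libraries. The cut kept 3 efruxifermin and 4 tumour control libraries. It dropped both libraries that stood apart, efruxifermin 3 (score 0.391) and tumour control 4 (0.249), and so overlaps with their joint omission. Efruxifermin 3 was the lowest efruxifermin library in Hp, Orm1 and Cp. The part of B cell RNA in the results was not tested.

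Of the other positive acute phase genes, Hpx alone was called by limma. Of 30 listed genes 28 were tested, and the list was chosen with earlier results of these data known. Under efruxifermin 1 (Hpx) was called higher and 27 were not called, with a median log2 change of 0.72, against -0.14 over all genes. Under FGF21 AAV 1 (Hpx) was called and 27 were not, with a median of 0.89, against -0.05 over all genes. At an unadjusted p under 0.05 there were 7 of 28 under efruxifermin and 9 of 28 under FGF21 AAV, all higher, beside 13.9% of all genes under efruxifermin and 16% under FGF21 AAV. By edgeR 1 was called and by DESeq2 2 under each agent, with no adjusted p from DESeq2 for 2 genes under efruxifermin and 18 under FGF21 AAV. The shares of all genes for efruxifermin and FGF21 AAV were 0.764% and 0.564% by limma and 0.27% and 0.047% by edgeR. By DESeq2 they were 2.57% and 8.55% of the genes with an adjusted p. In tumour control against healthy limma called 0 of the 28 and their median was -0.40. There 2 were lower at an unadjusted p under 0.05, edgeR called 0 and DESeq2 called 1, with no adjusted p from DESeq2 for 6. Over all genes the median was -0.16, and 8.32% had an unadjusted p under 0.05.

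Hemopexin (Hpx), which binds free haem as haptoglobin binds haemoglobin, was at 25.2 ± 21.5 RPM under efruxifermin, 35.1 ± 33.4 RPM under FGF21 AAV, 0.332 ± 0.200 RPM in tumour controls (SD, n = 5 each) and 11.5 ± 1.60 RPM in healthy mice (SD, n = 4). Relative to tumour controls it rose by 3.79 ± 0.71 under efruxifermin (limma adjusted p 0.0149) and by 4.22 ± 0.71 under FGF21 AAV (limma adjusted p 0.0116). The tumour controls held 5 reads of it in all. Of the 8 listed genes of haemoglobin and haem handling, Lrp1, the receptor of the hemopexin complex, was also higher under efruxifermin (1.65 ± 0.35, limma adjusted p 0.0255) and FGF21 AAV (1.68 ± 0.35, limma adjusted p 0.0325). Cd163, the haptoglobin-haemoglobin receptor, rose by 2.63 ± 0.63 under efruxifermin (limma adjusted p 0.0479) and had an estimate of 2.14 ± 0.63 under FGF21 AAV (limma adjusted p 0.108). It was not called by edgeR. Of the 8 genes limma called 3 under efruxifermin and 2 under FGF21 AAV, beside 0.764% and 0.564% of all genes. By edgeR there were 2 and 1, and by DESeq2 3 and 1, with no adjusted p from DESeq2 for 5 under FGF21 AAV.

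**Figure D4:**
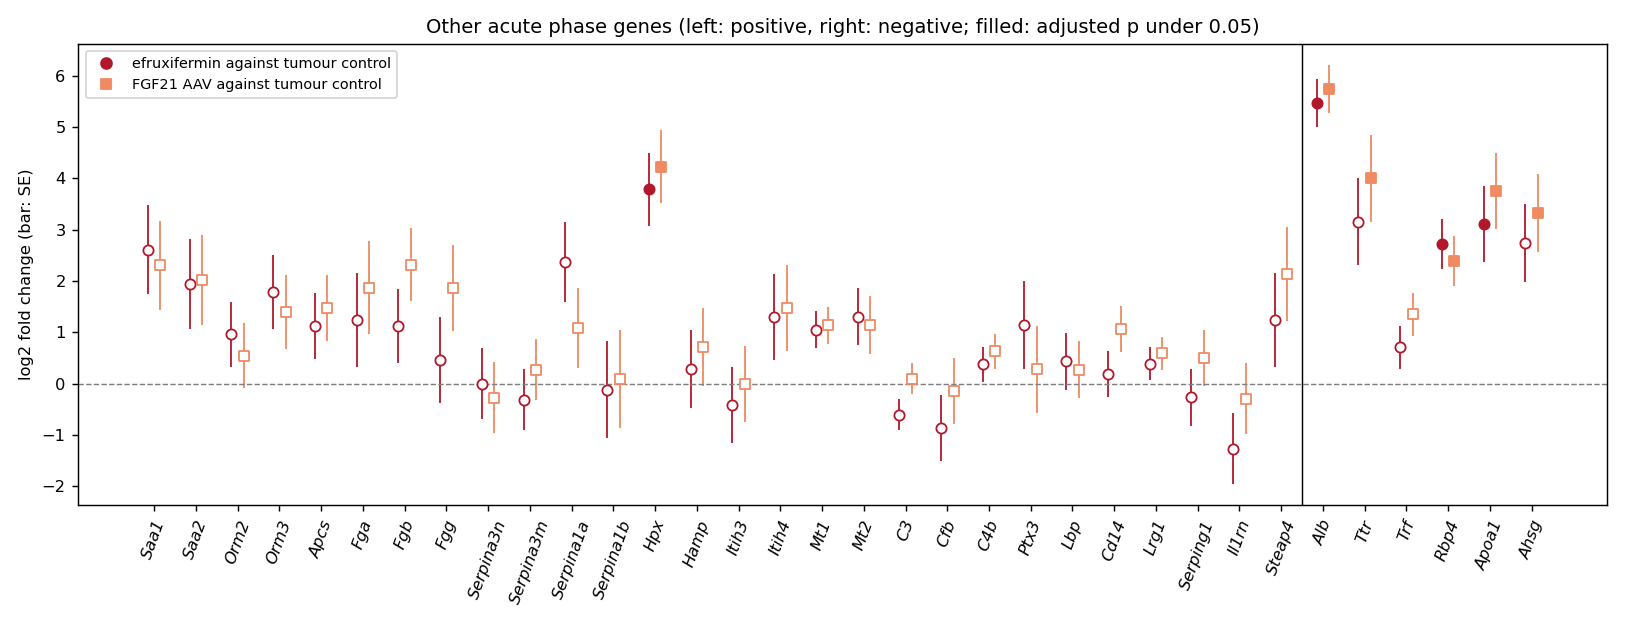
limma log2 fold changes with SE on the log2(RPM + 1) scale (vertical axis) of the 28 tested other positive acute phase genes (left of the line) and the 6 tested negative ones (right), for efruxifermin against tumour control (circles) and FGF21 AAV against tumour control (squares), filled where the adjusted p was under 0.05. Hpx is the single filled gene on the left, and 3 genes for efruxifermin and 5 for FGF21 AAV are filled on the right.

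Negative acute phase genes, which fall in liver during the response, had positive estimates in the treated mice. Of 6 tested genes 3 were called higher under efruxifermin (Alb, Rbp4 and Apoa1) and 5 under FGF21 AAV (Alb, Ttr, Rbp4, Apoa1 and Ahsg), with a median of 2.93 under efruxifermin and 3.54 under FGF21 AAV. Under efruxifermin 5 had an unadjusted p under 0.05, edgeR called 4 and DESeq2 5. Under FGF21 AAV 6 had an unadjusted p under 0.05, edgeR called 2 and DESeq2 2, with no adjusted p from DESeq2 for 3. The limma shares over all genes were 0.764% under efruxifermin and 0.564% under FGF21 AAV. Without adjustment they were 13.9% under efruxifermin and 16% under FGF21 AAV. By edgeR they were 0.27% and 0.047%, and by DESeq2 2.57% and 8.55% of the genes with an adjusted p. The retinol carrier Rbp4, which adipocytes also make, was at 177 ± 106 RPM under efruxifermin, 126 ± 65.7 RPM under FGF21 AAV, 24.1 ± 12.3 RPM in tumour controls (SD, n = 5 each) and 89.6 ± 27.9 RPM in healthy mice (SD, n = 4). Its rise was 2.71 ± 0.49 under efruxifermin (limma adjusted p 0.0108) and 2.39 ± 0.49 under FGF21 AAV (limma adjusted p 0.0325). In tumour control against healthy Alb alone was called, as lower (limma adjusted p 1.31e-05). Its fitted change depends on the pseudocount, because tumour controls held 1 read of it. The estimates of these genes had the same sign as those of Hp, Orm1 and Cp under both agents.

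The cytokines and receptors that induce the response did not pass. Of 15 tested genes 0 were called by limma under efruxifermin, 3 had an unadjusted p under 0.05, and edgeR and DESeq2 called 0. Under FGF21 AAV 0 were called by limma, 5 had an unadjusted p under 0.05, edgeR called 0 and DESeq2 called 1, with no adjusted p from DESeq2 for 8. Among all genes the unadjusted shares were 13.9% for efruxifermin and 16% for FGF21 AAV. For FGF21 AAV DESeq2 called 8.55% of the genes to which it gave an adjusted p. Il6 had 10 reads in 1 efruxifermin library and none in the other 18. The shared receptor chain Il6st had an estimate of -0.18 ± 0.21 under efruxifermin and 0.14 ± 0.21 under FGF21 AAV, and the interleukin 6 receptor Il6ra had -0.31 ± 0.39 under efruxifermin and -0.03 ± 0.39 under FGF21 AAV. Il11ra1 had 0.47 ± 0.33 under efruxifermin and 0.65 ± 0.33 under FGF21 AAV.

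Of 14 transcription factors and feedback genes 0 were called by limma under either agent. At an unadjusted p under 0.05 there were 2 for efruxifermin and 5 for FGF21 AAV, edgeR called 0 in both, and DESeq2 called 2 for efruxifermin and 4 for FGF21 AAV. For 2 of the 14 DESeq2 gave no adjusted p under FGF21 AAV. Of all genes 13.9% for efruxifermin and 16% for FGF21 AAV had an unadjusted p under 0.05. DESeq2 called 2.57% for efruxifermin and 8.55% for FGF21 AAV of the genes to which it gave an adjusted p. Stat3, which carries the interleukin 6 signal, had an estimate of 0.21 ± 0.21 under efruxifermin and 0.14 ± 0.21 under FGF21 AAV. The kinase Jak1 had -0.55 ± 0.37 under efruxifermin and -1.13 ± 0.37 under FGF21 AAV. The NF-kappa B inhibitor Nfkbia had -0.41 ± 0.32 under efruxifermin and -0.34 ± 0.32 under FGF21 AAV.

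Partners of the members in iron handling were also short of the threshold. Of 3 tested lipocalin 2 and siderophore partners 0 were called by limma under either agent, 1 had an unadjusted p under 0.05 in each, and edgeR called 0. DESeq2 called 0 under efruxifermin, and under FGF21 AAV it gave none of the 3 an adjusted p. The unadjusted shares of all genes were 13.9% under efruxifermin and 16% under FGF21 AAV. The lipocalin 2 receptor Slc22a17 had estimates of 1.04 ± 0.44 under efruxifermin and 1.25 ± 0.44 under FGF21 AAV. Mmp9, which forms a complex with lipocalin 2, had 1.68 ± 0.83 under efruxifermin and 1.31 ± 0.83 under FGF21 AAV. The siderophore enzyme Bdh2 had 1.23 ± 0.73 under efruxifermin and 1.201 ± 0.73 under FGF21 AAV.

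Of 14 genes of iron export and storage 0 were called by limma. At an unadjusted p under 0.05 there was 1 under efruxifermin and 3 under FGF21 AAV, edgeR called 0, and DESeq2 called 1 in each. DESeq2 gave no adjusted p for 1 gene under efruxifermin and 7 under FGF21 AAV. Its shares of all genes with an adjusted p were 2.57% and 8.55%. Over all genes 13.9% under efruxifermin and 16% under FGF21 AAV had such a p. The ferritin chains Fth1 and Ftl1 had estimates of 0.16 ± 0.30 and 0.17 ± 0.27 under efruxifermin, and transferrin (Trf), which carries the iron that ceruloplasmin oxidises, had 0.71 ± 0.42. Of 7 tested serum amyloid A receptors Cd36 was called higher under efruxifermin (2.07 ± 0.50, limma adjusted p 0.0477), and 0 under FGF21 AAV, where 1 had an unadjusted p under 0.05, edgeR called 0 and DESeq2 called 1. Limma called 0.764% of all genes under efruxifermin. DESeq2 gave no adjusted p for 5 of the 7 receptors under FGF21 AAV.

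Several members have near-identical relatives, and reads of such genes can be assigned to the wrong copy, so single copies are uncertain. Orm3 was at 10.6, 3.64, 2.10, 41.8 and 13.8 RPM under efruxifermin, and at 7.55, 5.47, 2.48, 9.35 and 12.7 RPM under FGF21 AAV. Tumour controls had 5.70, 1.89, 0, 1.08 and 4.29 RPM, and healthy mice 3.87, 7.79, 11.5 and 4.40 RPM. Its estimates were 1.79 ± 0.72 for efruxifermin and 1.40 ± 0.72 for FGF21 AAV (limma adjusted p 0.265 and 0.344). Orm2 was detected in 5 libraries, with 40 reads under efruxifermin, 12 under FGF21 AAV, none in tumour controls and 10 in healthy mice. With the reads of Orm1, Orm2 and Orm3 summed, the estimates were 3.32 for efruxifermin and 2.76 for FGF21 AAV, and both passed (limma adjusted p 0.0108 and 0.0362).

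The serum amyloid A genes of liver type had more reads than Saa3. Saa1 was at 6.33 to 21.2 RPM under efruxifermin, 0.359 to 47.2 RPM under FGF21 AAV, 0 to 5.85 RPM in tumour controls and 0 to 5.98 RPM in healthy mice. Every efruxifermin mouse lay above every tumour control, but the estimate of 2.61 ± 0.87 did not pass (limma adjusted p 0.166), and that for FGF21 AAV was 2.31 ± 0.87 (limma adjusted p 0.193). Saa2 had 1.94 ± 0.87 for efruxifermin and 2.02 ± 0.87 for FGF21 AAV (limma adjusted p 0.321 and 0.258). Saa4 had 22 reads in 3 libraries and was not tested.

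**Figure D5:**
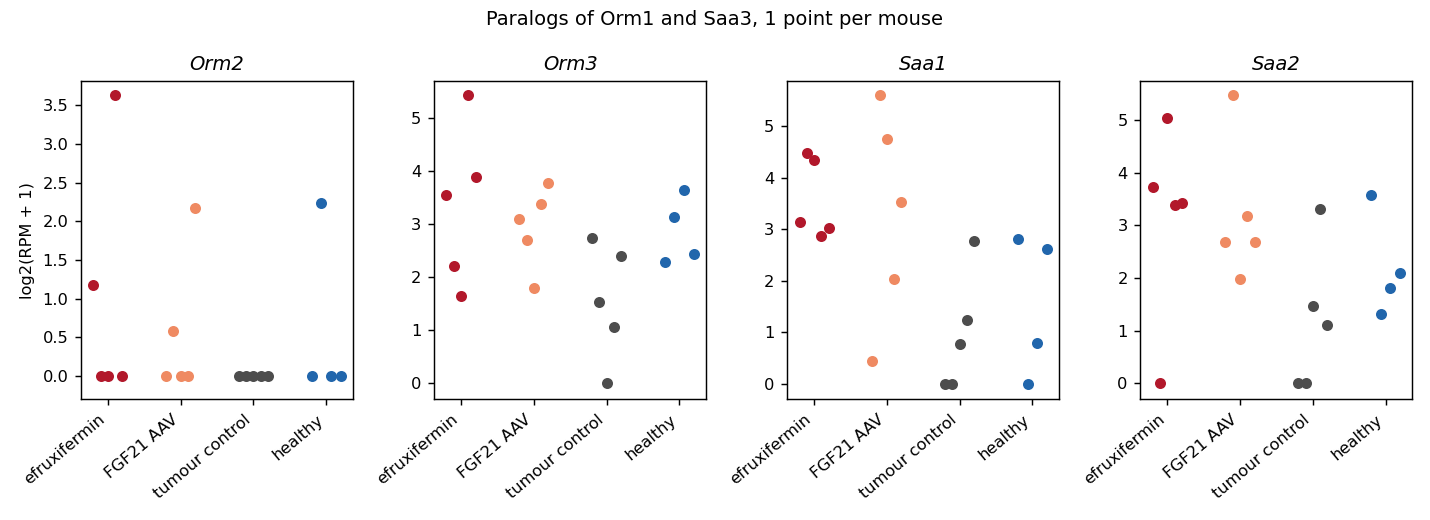
log2(RPM + 1) (vertical axes) of Orm2, Orm3, Saa1 and Saa2 in the 4 groups (horizontal axes), 1 point per mouse. Orm2 was at 0 in all 5 tumour controls, and Saa1 in all 5 efruxifermin mice lay above the tumour controls.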

How the data were processed

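Per the labels' protocols, RNA of whole inguinal fat was made into QuantSeq 3' FWD libraries. Per the submitters' processing notes, FastQC, cutadapt, HISAT2, HTSeq and GRCm39 were used. Versions, the strand setting and the handling of reads that match several genes are not given in the sources used here, so antisense and overlapping reads cannot be told apart. The deposited values are RPM per gene and mouse. In each library 100% of values of up to 1000 reads lay within 0.05 of a whole number of reads, so whole reads were recovered.

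The members and lists were chosen with earlier results of these data known. Genes with RPM of at least 1 in at least 4 libraries (17013) were fitted by limma 3.58.1 (R 4.3.3, trend option) on log2(RPM + 1), all 4 groups together. Folds are on this scale and understate low genes. Relations used 100000 permutations over 19 libraries. With group means removed the residuals were shuffled across groups without allowance for the means, so those p-values tend to be too small. Named genes were the 5 members, their paralogs, list genes called in any of the 6 comparisons or otherwise the 3 of highest mean RPM, and the 3 genes most like each member. Alternatives were other pseudocounts (0.25 and 5), filters, TMM, edgeR 4.0.16 and DESeq2 1.42.0 on recovered reads, RPM without Gm42418, 2 groups alone, score covariates, a replicate block and leaving out libraries. The hepatocyte covariate, the B cell split, the joint omission of 2 libraries and the summed Orm genes were chosen after seeing the data. In simulated reads of efruxifermin against tumour control (16201 genes) 4.48% of 2-fold, 44.8% of 4-fold and 71.2% of 8-fold changes were recovered, and 4 unchanged genes were called. The changed genes had mean RPM of 5 or more, rose and fell in equal number, and changed independently of each other. No cell type shifted in the simulation, so its rates need not hold for the real comparisons, where marker scores differed between groups. Each library is a separate mouse per the labels. Floors cover counting error only, since PCR copies of 1 molecule were not told apart.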

Additional observations from a re-analysis of the deposited data

Results flagged for a closer look

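In 3 of 20 groups of a member, 1 mouse was flagged as far from the others of its group. The flag used the gap to the nearest mouse over the range of the group, which was 0.897 to 1 in these cases. The rule assumes normally spread values, which Saa3 with its libraries without reads does not have. No chance rate can therefore be set beside the count. Lcn2 in efruxifermin 1 was at 366 RPM, and the next efruxifermin library had 137.3 RPM. Saa3 in efruxifermin 1 was at 14.7 RPM, while the other 4 had no read. Saa3 in tumour control 4 was at 4.602 RPM, and the next tumour control had 0.475 RPM. Efruxifermin 1 also had the highest Hp level of all mice, 1851 RPM.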

How the results depend on the processing

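Over 30 member results and 1017 alternative values, 934 kept direction and side of the threshold, 45 lost a call, 11 gained one and 27 changed sign, 0 of these with a call. Log2 changes are given below, and the causes of these shifts were not tested. Other scalings moved the median of all genes by up to 0.221.

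Efruxifermin against tumour control: Hp lost its call without a filter (3.21), by edgeR (3.00), with 2 groups alone (3.21), with the adipocyte score (1.22) and with the hepatocyte score (3.41). Orm1 lost it with 2 groups alone (3.59) and with these scores (2.20 and 4.34), as did Cp (1.75, 0.90 and 2.00). The fit of 2 groups alone called 1 of 17013 genes. Saa3 changed sign among libraries with high B cell scores (-0.14). FGF21 AAV against tumour control: Orm1 lost its call with pseudocount 5 (2.15), without a filter (3.03), by edgeR (2.96), with B cell and muscle scores (2.63), the adipocyte score (1.48), the hepatocyte score (3.96) and among high B cell scores (3.69). Cp did so without a filter (1.57), by edgeR (1.56), with B cell and muscle scores (1.27), the adipocyte score (0.62), the hepatocyte score (1.88) and among high B cell scores (1.29). Hp passed by DESeq2 (2.20) and without tumour control 4 and efruxifermin 3 (2.72), where Lcn2 (1.80) passed too.

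In tumour control against healthy Orm1 passed by DESeq2 (-2.69) and without those 2 libraries (-2.98), Hp changed sign with the adipocyte score (1.13), and Saa3 with the hepatocyte score (-0.016) and without those libraries (-0.25). Without them Hp in efruxifermin against healthy passed (3.34). Lcn2 in that comparison changed sign with TMM (0.056), edgeR (0.12), DESeq2 (0.15), B cell and muscle scores (0.23), RPM without Gm42418 (0.033), without those libraries (0.022) and among high B cell scores (0.072). Saa3 in efruxifermin against FGF21 AAV did so by edgeR (0.24) and DESeq2 (0.20), and Orm1 in FGF21 AAV against healthy with B cell and muscle scores (-0.22) and the adipocyte score (-0.16). Pathway genes called under FGF21 AAV numbered 3 by edgeR, against 7 by limma. With group means removed 4 relations lost their call (0.454 for Hp and Lcn2, 0.196 for Orm1 and Lcn2, 0.472 for Orm1 and Cp, 0.519 for Lcn2 and Cp).

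Leaving out 1 library at a time, Hp under efruxifermin ranged from 2.73 to 3.81 and lost its call without efruxifermin 1, 2 or 4 or tumour control 1 or 2. Orm1 (3.18 to 4.01) and Cp (1.60 to 2.06) lost theirs without efruxifermin 1 or 4, at limma adjusted p of 0.0501 and 0.0536 for both genes. Under FGF21 AAV, Orm1 (2.77 to 3.39) and Cp (1.42 to 1.72) lost theirs without FGF21 AAV 2, 3, 4 or 5 or tumour control 1 or 2. Hp (1.94 to 2.75) gained a call there without efruxifermin 3 or tumour control 4, and Lcn2 (1.18 to 1.98) without tumour control 4 or 5. In tumour control against healthy Orm1 (-3.13 to -2.35) gained one without tumour control 5, Hp ranged from -0.80 to 0.011 and Saa3 from -0.25 to 0.37. Against healthy, Lcn2 (-0.36 to 0.18) and Saa3 (-0.39 to 0.60) under efruxifermin and Orm1 (-0.090 to 0.68) under FGF21 AAV changed sign, as did Saa3 in efruxifermin against tumour control (-0.61 to 0.65) and against FGF21 AAV (-1.25 to 0.023).

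Of 27 pairs of libraries with the same replicate number 8 correlated above 0.1 after group means were removed, as did 24 of 108 pairs with other numbers. The median r was -0.0199 for the same number and -0.00839 for other numbers. The replicate numbers thus gave no clear sign of pairing, which does not exclude it. With the replicate block 172 genes were called in efruxifermin against tumour control, 150 in FGF21 AAV against tumour control and 40 in tumour control against healthy, against 130, 96 and 8 without it. Under the block Hp was at 3.21 in efruxifermin against tumour control (limma adjusted p 0.0254), and no call of a member changed in any of the 6 comparisons.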
